A study of Homo sapiens with 6 samples.

Results

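The mitotic G2/M genes are 43 genes whose products carry a cell from the end of DNA replication through chromosome segregation and cytokinesis, among them MKI67, TOP2A, the mitotic cyclins and CDK1. They were taken from a written list by the gene symbol of the platform annotation, using probe sets that carry a single symbol and keeping for each gene the probe set with the highest mean over all 6 arrays. All 43 were found among the 19775 genes measured. The samples were 6 samples from 2 subclones of DLD-1, an established line of human colorectal adenocarcinoma cells: 3 carried the label DLD-1Δα-Cat, and the other 3 the label DLD-1α-Cat. Both subclones were untreated and had spent 96 h in a 3-dimensional gel of type I collagen at 1 mg/ml, and each sample went to 1 Affymetrix array. The labels call the cells subclones of DLD-1, do not spell out Δα-Cat, and leave unsaid whether replicates were separate cultures, so each p-value is set against a scatter among arrays that could be technical in origin. The RNA of CTNNA1, which encodes αE-catenin, stood at 11.23 ± 0.193 (SD, n = 3) in the former and at 12.75 ± 0.0324 (SD, n = 3) in the latter (log2; difference -1.52, SE 0.119, adjusted p = 0.000838).

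Array medians lay between 6.12 and 6.15 (log2), so the arrays were on 1 scale; their number, 3 per subclone, limits the precision. The epithelial markers EPCAM, CDH1, KRT8, KRT18, KRT19, VIL1 and CDX2 had means between 9.82 and 14.1 in the subclones and 0 of 7 passed the test. For cell types that a culture could hold beside the line, 0 of 9 fibroblast and 0 of 3 measured leukocyte markers passed. Single fibroblast markers had means between 2.97 and 6.68 in DLD-1Δα-Cat and between 3.07 and 6.95 in DLD-1α-Cat, highest for COL1A1. The mean of the 9 fibroblast markers lay between 4.66 and 4.72 on the DLD-1Δα-Cat arrays and between 4.60 and 4.92 on the DLD-1α-Cat arrays. For the leukocyte markers it lay between 3.72 and 3.91 and between 3.996 and 4.21, without overlap but near the bottom of the scale, and their part in the results was not tested.

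Entry into mitosis rests on CDK1 bound to cyclin B, which is held inactive until the phosphatases of the CDC25 family remove inhibitory phosphates. The transcription factors FOXM1 and B-MYB (MYBL2) switch on the late cell cycle genes, largely through promoter elements called CHR (cell cycle genes homology region) and CCAAT boxes. The spindle assembly checkpoint holds anaphase back until kinetochores are attached, and the anaphase-promoting complex (APC/C) with its activator CDC20 then marks cyclin B and securin for destruction. In the colon these genes are active in the dividing crypt cells and silent in differentiated surface cells.

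All 43 genes had lower means in DLD-1Δα-Cat than in DLD-1α-Cat, with differences between -0.83 and -0.11 on the log2 scale and a median of -0.41. Over all genes tested the median was -0.03 and 55.3% lay below 0. In limma's test, adjusted over all genes by Benjamini-Hochberg at a threshold of 0.05, 10 members were lower and 0 higher, with 32 lower and 0 higher at an unadjusted p under 0.05. By that unadjusted rule 8.98% of all genes were lower and 11.8% higher. By the adjusted rule 1.67% of all genes were called lower and 3.84% higher, so the share of members called lower, 23.3%, lay above the background and the share called higher below it. Quantile normalization of the values moved the calls over all genes from 331 lower and 760 higher to 475 and 700, with 12 members lower. The 10 members were HMMR, UBE2C, PLK1, NUF2, BUB1, CDC20, DLGAP5, CCNB1, KIF20A and KIF2C. The changes were small: 14 members were at least 1.5-fold lower and 0 at least 2-fold. An array of RNA from whole cultures cannot tell fewer cells in G2 and mitosis from less RNA in each such cell.

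The 3 DLD-1Δα-Cat arrays lay below the 3 DLD-1α-Cat arrays, with no overlap, for 33 of the 43 genes, against 13.1% of all genes. None of the members had the opposite order, which 14.1% of all genes had. The 10 genes whose arrays overlapped were CENPE, CENPN, ESPL1, KIF23, KIF4A, KIF14, KIF18A, CCNA2, MKI67 and NDC80. The number of calls changed with single arrays. With replicate 1, 2 or 3 of DLD-1Δα-Cat left out, 6, 1 and 2 members were lower, where 0.981%, 0.602% and 0.688% of all genes were. With replicate 1, 2 or 3 of DLD-1α-Cat left out, 6, 9 and 1 members were lower, where 1.24%, 1.76% and 0.587% of all genes were. HMMR was called in all 6 of these runs, UBE2C in 3, and BUB1, CDC20 and KIF2C in 2. The other 5 were each called in 1, and in every run 0 members were higher.

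**Figure D1:**
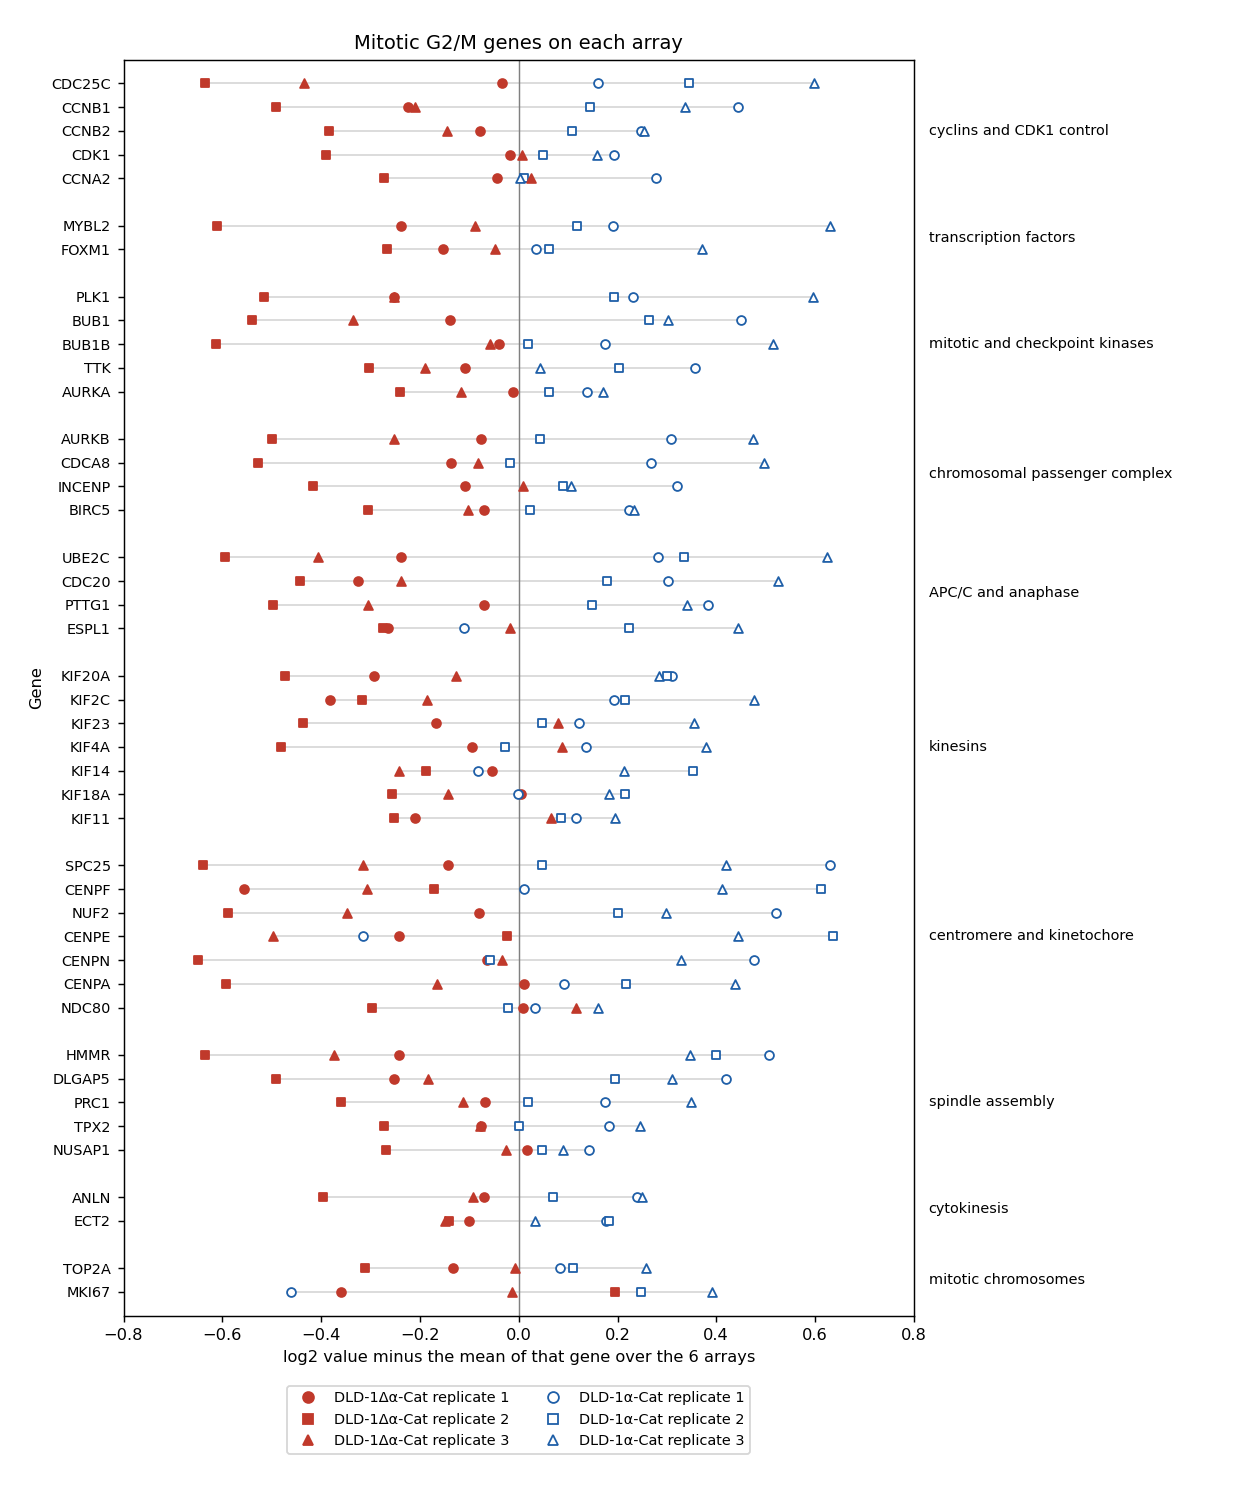
Each row is 1 gene, grouped by role, and each point 1 array: the log2 value minus the mean of that gene over the 6 arrays. Filled red points (DLD-1Δα-Cat) lie left of the open blue points (DLD-1α-Cat) without overlap in 33 of 43 rows; replicate 2 of DLD-1Δα-Cat, the square, is the lowest of its group in 37.

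By same-numbered replicates, 39 of 43 genes were lower in DLD-1Δα-Cat in pair 1, 43 in pair 2 and 42 in pair 3. The median differences were -0.32, -0.51 and -0.46, where those of all genes were -0.03, 0.0026 and -0.01. In all 3 pairs 38 members were lower, as were 26.5% of all genes. The exceptions were CENPE, KIF14, KIF18A and MKI67, above 0 in pair 1 by 0.07, 0.03, 0.00591 and 0.10, and CCNA2, above 0 in pair 3 by 0.02. With the replicate number as a block in the fit, 17 members were lower, against 2.27% of all genes. All 10 were among them, and SPC25, CENPF, PTTG1, MYBL2, AURKB, CDCA8 and CENPN joined.

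**Figure D2:**
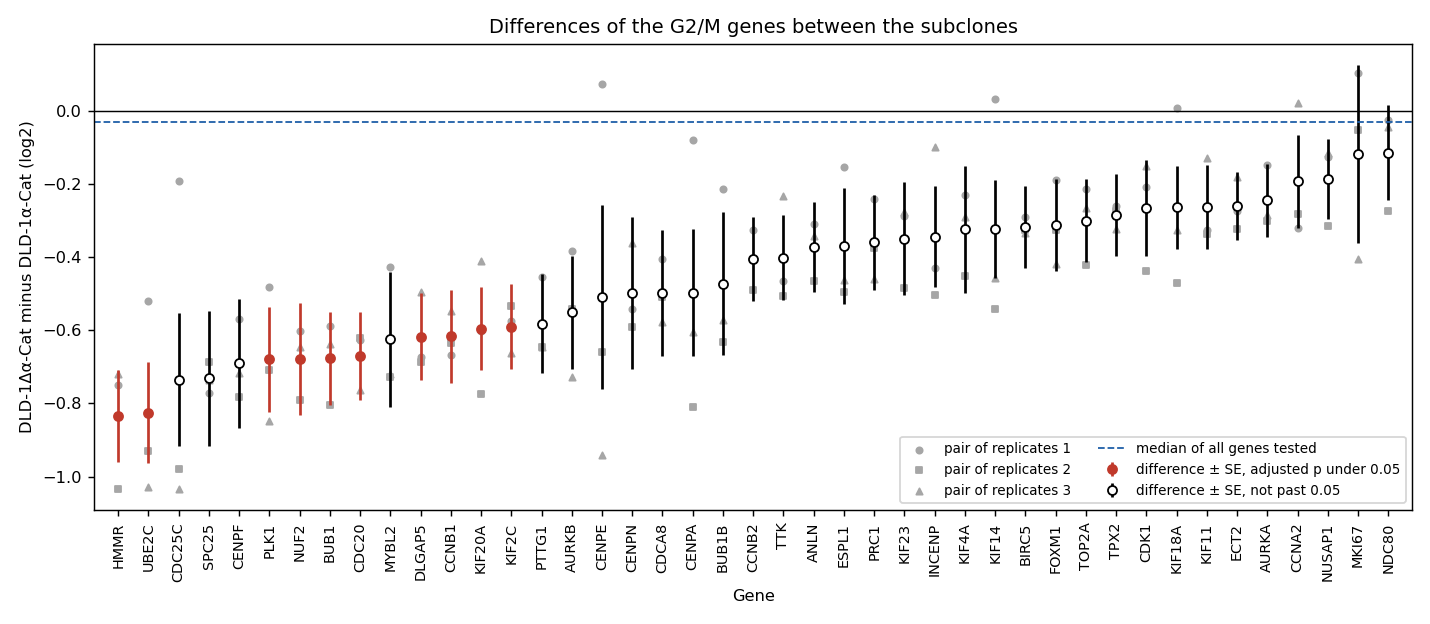
Differences of the 43 genes (DLD-1Δα-Cat minus DLD-1α-Cat, log2) with their standard errors, ordered by size; grey points are the 3 same-numbered pairs and the dashed line is the median of all genes, -0.03. The 10 called genes, in red, lie between -0.83 and -0.59, and all 43 differences lie below 0.

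The arrays of a subclone also differed in these genes. Set against each gene's mean over the 6 arrays, the members had a median of -0.11, -0.40 and -0.13 on replicates 1, 2 and 3 of DLD-1Δα-Cat and of 0.19, 0.12 and 0.34 on those of DLD-1α-Cat. Replicate 2 of DLD-1Δα-Cat was the lowest array of its group for 37 members, and replicate 3 of DLD-1α-Cat the highest of its group for 24. β-actin has control probe sets at the 3′ and the 5′ end of its RNA, and their ratio is a sign of RNA quality: on the log2 scale it was 5.16, 5.38 and 5.07 on the DLD-1Δα-Cat arrays against 4.82, 4.89 and 4.36. It was thus highest on the array where the members were lowest and lowest on the array where they were highest. The groups did not overlap (difference 0.515, exact permutation test, two-sided, p = 0.1, the smallest that 3 against 3 arrays allow). The same ratio for GAPDH was 0.749 ± 0.0670 and 0.656 ± 0.144 (SD, n = 3 each; exact permutation p = 0.4). With the β-actin ratio as a covariate in limma, 37 of 43 members lay below 0 with a median of -0.17, and BUB1B, FOXM1, KIF23, KIF4A, MKI67 and NDC80 lay above 0. Of all 19775 genes 9634 lay below 0 there, with a median of 0.0082. In that fit 0 members passed, and 0.131% of all genes were called lower. At an unadjusted p under 0.05 it had 6 members lower and 0 higher, and 2.63% of all genes lower. Because the ratio did not overlap between the subclones, this fit cannot tell its effect from that of the subclone.

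Promoter sequences are shown because many of these genes are known to be driven through the same elements. Whether the elements bear on the differences between the subclones was not tested. RefSeq promoter windows (GRCh38.p14, 250 bases before to 50 after the annotated start, the outermost start per gene) were found for 37 of the 43 genes. They were searched on both strands for the NF-Y box, CCAAT, and for the CHR hexamer in its common form, TTTGAA, and in a rarer form spelled TTCGAA. Neighbouring matches may share bases, and each window counts once per motif. The box was present in 29 of 37 windows, against 35.7% of all promoters and 36.1% of those of the genes tested. The common hexamer was present in 27 of 37, against 15.5% and 12%, and the rarer form in 2, against 1.46% and 1.66%. A box together with either hexamer stood in 24 of 37 windows and in 6.63% of all promoters. Matches lay close to the start: the median position of the first base was -70 for the box and -27 for the common hexamer, counted in bases from the start.

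The 120 bases before the start follow for 7 of the called genes and for MKI67, whose difference was among the smallest, 5′ to 3′ on the gene's own strand. Capitals mark the box, read on either strand, and the first form of the hexamer. Adjoining capitals are neighbouring or overlapping matches. KIF2C is shown as a called gene with none of these letters in this stretch. NUF2, also called, had no match in this stretch either and is not printed. Its TTTGAA lies at 16, past the start.
HMMR (chr5:163460512-163460631, plus strand): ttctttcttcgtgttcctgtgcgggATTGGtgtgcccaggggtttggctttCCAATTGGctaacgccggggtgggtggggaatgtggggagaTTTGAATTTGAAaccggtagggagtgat
PLK1 (chr16:23678769-23678888, plus strand): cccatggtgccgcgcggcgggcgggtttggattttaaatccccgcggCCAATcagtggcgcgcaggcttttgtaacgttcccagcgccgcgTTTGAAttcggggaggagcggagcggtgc
CDC20 (chr1:43358861-43358980, plus strand): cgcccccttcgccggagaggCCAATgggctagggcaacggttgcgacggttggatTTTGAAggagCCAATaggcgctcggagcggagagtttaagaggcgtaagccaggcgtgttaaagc
CCNB1 (chr5:69167030-69167149, plus strand): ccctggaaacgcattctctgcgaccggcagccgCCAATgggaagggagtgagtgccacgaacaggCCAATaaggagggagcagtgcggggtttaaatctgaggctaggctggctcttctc
BUB1 (chr2:110678064-110678183, minus strand): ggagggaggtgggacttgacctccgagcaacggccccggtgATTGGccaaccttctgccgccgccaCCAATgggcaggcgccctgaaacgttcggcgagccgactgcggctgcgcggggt
KIF20A (chr5:138178992-138179111, plus strand): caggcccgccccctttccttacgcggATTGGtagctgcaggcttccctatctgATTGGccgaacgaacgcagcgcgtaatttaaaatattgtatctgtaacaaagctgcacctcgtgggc
KIF2C (chr1:44739717-44739836, plus strand): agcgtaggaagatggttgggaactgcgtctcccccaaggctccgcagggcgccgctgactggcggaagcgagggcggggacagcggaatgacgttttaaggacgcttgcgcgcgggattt
MKI67 (chr10:128126424-128126543, minus strand): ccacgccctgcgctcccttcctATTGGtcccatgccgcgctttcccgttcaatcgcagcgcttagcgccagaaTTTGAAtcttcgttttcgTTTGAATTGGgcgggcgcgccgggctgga

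HMMR holds 2 TTTGAA matches side by side, at -28 and -22, behind CCAAT boxes at -95, -69 and -66. PLK1 has a single box at -73 and a hexamer at -29, and in CDC20 the hexamer at -65 lies between boxes at -100 and -55. CCNB1, KIF20A and BUB1 each show 2 CCAAT boxes in this stretch and no TTTGAA, and BUB1 has TTCGAA at 1, just past the start. MKI67, which was not called, holds boxes at -98 and -24 and hexamers at -47 and -29. The 27 genes with TTTGAA had a median difference of -0.37 and 5 of them were called, and the 10 without it had a median of -0.59 with 4 called. By the box, the medians were -0.41 for the 29 genes with it and -0.55 for the 8 without, and neither difference was tested.

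**Figure D3:**
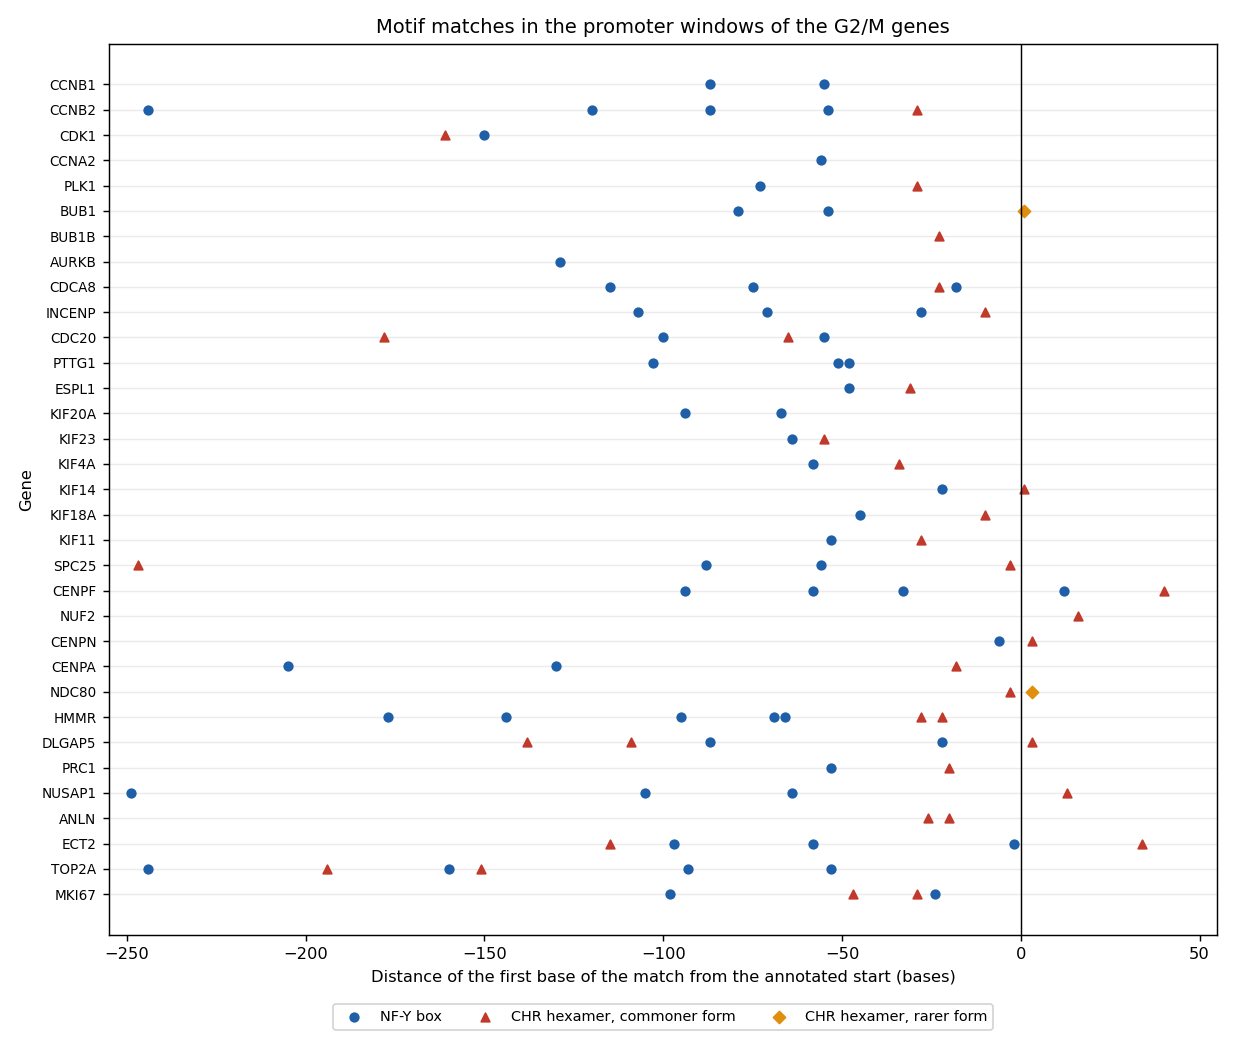
Matches to the NF-Y box and to the 2 forms of the CHR hexamer in the promoter windows of the 33 genes that held at least 1, by distance of the first base from the annotated start. Most boxes lie within 100 bases before the start (44 of 60 matches) and the hexamers nearer to it, with medians of -70 and -27.

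Among the 5 genes of the mitotic cyclins and the control of CDK1, 1 was called. Cyclin B1 (CCNB1), the partner of CDK1 at mitotic entry, read 12.18, 11.91 and 12.19 on the DLD-1Δα-Cat arrays and 12.85, 12.55 and 12.74 on the DLD-1α-Cat arrays. All DLD-1Δα-Cat arrays lay below all DLD-1α-Cat arrays, and the difference was -0.62 (SE 0.126, adjusted p = 0.0354), 1.53-fold lower in DLD-1Δα-Cat. CDC25C, the phosphatase that activates cyclin B-CDK1, read 9.77, 9.17 and 9.37 on the DLD-1Δα-Cat arrays and 9.96, 10.15 and 10.40 on the DLD-1α-Cat arrays. Its difference of -0.74 (SE 0.181, adjusted p = 0.0638) was larger than that of CCNB1 and did not pass, with replicate 1 of DLD-1Δα-Cat close to the DLD-1α-Cat arrays. Cyclin A2 (CCNA2), which acts in S phase as well as G2, read 12.43, 12.20 and 12.50 against 12.75, 12.48 and 12.48, and the groups overlapped. Its difference was -0.19 (SE 0.127, adjusted p = 0.421). Cyclin B2 (CCNB2) and CDK1 itself differed by -0.41 and -0.27 (adjusted p = 0.0936 and 0.302). The dimmer probe set of CCNA2 stood at -0.63 and 3 further ones of CDK1 between -0.70 and -0.57, so probe sets of these 2 genes differed in size but not in sign.

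The transcription factors of the programme did not pass. MYBL2 (B-MYB), which binds with the MuvB complex to CHR elements, read 7.49, 7.12 and 7.64 on the DLD-1Δα-Cat arrays and 7.92, 7.85 and 8.36 on the DLD-1α-Cat arrays. The groups did not overlap, at -0.63 (SE 0.185, adjusted p = 0.106), and with the replicate block its adjusted p was 0.0356. FOXM1, the forkhead factor that joins the same complex in G2, read 12.16, 12.05 and 12.27 against 12.35, 12.38 and 12.69, a narrow gap at -0.31 (SE 0.125, adjusted p = 0.213).

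Of 5 mitotic and checkpoint kinases 2 were lower. PLK1, the polo-like kinase of mitotic entry and spindle poles whose promoter is printed above, read 7.99, 7.73 and 7.99 on the DLD-1Δα-Cat arrays and 8.47, 8.44 and 8.84 on the DLD-1α-Cat arrays. Its difference was -0.68 (SE 0.142, adjusted p = 0.0387), 1.60-fold. BUB1, a checkpoint kinase of the kinetochore, read 10.11, 9.71 and 9.92 on the DLD-1Δα-Cat arrays and 10.70, 10.52 and 10.56 on the DLD-1α-Cat arrays, at -0.68 (SE 0.127, adjusted p = 0.0269). In both genes the arrays of the subclones were separated by at least 0.40. AURKA, the kinase of centrosomes and spindle poles, read 13.32, 13.09 and 13.21 against 13.47, 13.39 and 13.50, which placed the groups side by side with little gap (difference -0.25, SE 0.101, adjusted p = 0.223). Its dimmer probe sets stood at -0.45 and -0.41. The checkpoint proteins BUB1B (BubR1) and TTK (MPS1) differed by -0.47 and -0.40 (adjusted p = 0.225 and 0.0986), without overlap of the groups. The 4 further probe sets of BUB1 were dim in both subclones and lay between -0.48 and -0.05.

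None of the 4 subunits of the chromosomal passenger complex, which corrects kinetochore attachments and guides cytokinesis, passed. The unadjusted p was under 0.05 for all 4, a level at which 8.98% of all genes were lower. AURKB, its kinase, read 9.55, 9.13 and 9.38 on the DLD-1Δα-Cat arrays and 9.94, 9.67 and 10.10 on the DLD-1α-Cat arrays (difference -0.55, SE 0.155, adjusted p = 0.0918; 0.0464 with the replicate block). Survivin (BIRC5) read 13.83, 13.59 and 13.80 against 14.12, 13.92 and 14.13, with a narrow gap and -0.32 (SE 0.113, adjusted p = 0.166). Borealin (CDCA8) and the scaffold INCENP differed by -0.50 and -0.34, and CDCA8 had an adjusted p of 0.0389 with the replicate block. INCENP had the lowest signal of the members, between 4.62 and 5.36, in the dim range of the array. For BIRC5 the 3 dimmer probe sets stood at -0.69, -0.48 and -0.27, and the first passed in the fit over all probe sets (limma adjusted p = 0.0147). That probe set is of a kind that can also bind related transcripts.

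The APC/C and anaphase group had 2 of 4 genes called. UBE2C, the ubiquitin-conjugating enzyme that works with the APC/C, read 9.41, 9.06 and 9.25 on the DLD-1Δα-Cat arrays and 9.93, 9.99 and 10.28 on the DLD-1α-Cat arrays. The gap between the groups was 0.52, and the difference was -0.83 (SE 0.138, adjusted p = 0.0180), or 1.77-fold. CDC20, the activator of the APC/C, read 11.17, 11.05 and 11.25 on the DLD-1Δα-Cat arrays and 11.80, 11.67 and 12.02 on the DLD-1α-Cat arrays (difference -0.67, SE 0.121, adjusted p = 0.0231), again without overlap. Securin (PTTG1), a substrate of that complex and the inhibitor of separase, differed by -0.58 (adjusted p = 0.0540; 0.0315 with the replicate block). Its probe set is of a kind that can also bind related transcripts, as are the only probe sets of FOXM1 and CENPA. Separase (ESPL1), the protease that opens cohesin, read 8.76, 8.75 and 9.01 against 8.91, 9.25 and 9.47, with replicate 1 of DLD-1α-Cat among the DLD-1Δα-Cat arrays (difference -0.37, SE 0.159, adjusted p = 0.241).

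Kinesins are motors that walk along spindle microtubules or take them apart, and 2 of the 7 listed were lower. KIF20A (MKLP2), needed for cytokinesis, read 9.42, 9.24 and 9.59 on the DLD-1Δα-Cat arrays and 10.02, 10.01 and 10.00 on the DLD-1α-Cat arrays. The DLD-1α-Cat arrays lay within 0.03, and the difference was -0.60 (SE 0.113, adjusted p = 0.0273). KIF2C (MCAK), which depolymerises microtubules at centromeres, read 9.91, 9.98 and 10.11 on the DLD-1Δα-Cat arrays and 10.49, 10.51 and 10.77 on the DLD-1α-Cat arrays, without overlap, at -0.59 (SE 0.116, adjusted p = 0.0315). KIF11 (Eg5), the motor that pushes spindle poles apart, read 12.16, 12.12 and 12.44 against 12.49, 12.46 and 12.57, nearly touching between groups (difference -0.26, SE 0.115, adjusted p = 0.249). The midzone motor KIF23 (MKLP1) and the chromokinesin KIF4A, whose near-identical copy KIF4B could share its probes, differed by -0.35 and -0.33. KIF14, of cytokinesis, and KIF18A, which aligns chromosomes, stood at -0.32 and -0.26. These last 4 overlapped between the subclones and had adjusted p from 0.228 to 0.335.

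At the centromere and kinetochore 1 of 7 genes was called. NUF2, a subunit of the NDC80 complex that binds microtubules, read 10.08, 9.57 and 9.81 on the DLD-1Δα-Cat arrays and 10.68, 10.36 and 10.46 on the DLD-1α-Cat arrays, without overlap. The difference was -0.68 (SE 0.154) with an adjusted p of 0.0499998, at the edge of the threshold, and the call was lost after quantile normalization or after centring the arrays on their middle values. SPC25, another subunit of that complex, read 10.34, 9.84 and 10.17 on the DLD-1Δα-Cat arrays and 11.11, 10.53 and 10.90 on the DLD-1α-Cat arrays (difference -0.73, SE 0.186, adjusted p = 0.0691; 0.0156 with the replicate block). NDC80 itself, which gives the complex its name, read 10.67, 10.37 and 10.78 against 10.70, 10.64 and 10.82, the smallest difference of the 43 genes at -0.11 (SE 0.131, adjusted p = 0.649). Differences within this single complex thus lay between -0.73 and -0.11, and whether they differ from each other was not tested. CENPF, a large outer kinetochore protein, differed by -0.69 (adjusted p = 0.0709; 0.0221 with the replicate block). The kinesin CENPE, the centromeric histone CENPA and CENPN, which reads CENPA nucleosomes, stood at -0.51, -0.50 and -0.50 (adjusted p = 0.302, 0.159 and 0.227).

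Among 5 spindle assembly genes 2 were lower. HMMR (RHAMM), a spindle pole protein that also serves as a hyaluronan receptor, read 11.46, 11.07 and 11.33 on the DLD-1Δα-Cat arrays and 12.21, 12.10 and 12.05 on the DLD-1α-Cat arrays. It had the largest difference of the members, -0.83 (SE 0.125, adjusted p = 0.0118) or 1.78-fold, and the arrays were separated by 0.59. Its other probe set differed by -0.998 (limma adjusted p = 0.0150 over all probe sets). DLGAP5 (HURP), which stabilises kinetochore fibres, read 11.38, 11.14 and 11.45 on the DLD-1Δα-Cat arrays and 12.05, 11.83 and 11.94 on the DLD-1α-Cat arrays, at -0.62 (SE 0.119, adjusted p = 0.0293). NUSAP1, a microtubule-bundling protein, read 13.45, 13.16 and 13.41 against 13.58, 13.48 and 13.52, where the groups came within 0.03 (difference -0.19, SE 0.109, adjusted p = 0.377). The dimmer probe set of NUSAP1 stood at -0.44. TPX2, the activator of AURKA, and PRC1, the bundler of the central spindle, differed by -0.29 and -0.36 (adjusted p = 0.204 and 0.169).

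Neither cytokinesis gene passed. Anillin (ANLN), the scaffold of the contractile ring, read 11.22, 10.89 and 11.19 on the DLD-1Δα-Cat arrays and 11.53, 11.36 and 11.54 on the DLD-1α-Cat arrays, at -0.37 (SE 0.123, adjusted p = 0.140). ECT2, the exchange factor that activates RhoA at the cell equator, read 12.64, 12.60 and 12.59 against 12.92, 12.92 and 12.77. Its arrays were tight within each subclone and did not overlap (difference -0.26, SE 0.0932, adjusted p = 0.169). The dimmer probe sets of ECT2 stood at -0.50 and -0.46.

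Of the 2 genes of mitotic chromosomes 0 passed, and both are common markers of proliferation. Ki-67 (MKI67), which coats mitotic chromosomes, read 10.35, 10.90 and 10.69 on the DLD-1Δα-Cat arrays and 10.24, 10.95 and 11.10 on the DLD-1α-Cat arrays. The lowest of the 6 values was replicate 1 of DLD-1α-Cat, the groups overlapped, and the difference was -0.12 (SE 0.243, adjusted p = 0.809). Its 3 dimmer probe sets stood between -0.33 and -0.25. MKI67 turned to 0.031 without replicate 1 of DLD-1Δα-Cat and to 0.047 without replicate 3 of DLD-1α-Cat. Topoisomerase IIα (TOP2A), which untangles sister chromatids, read 12.45, 12.28 and 12.58 against 12.67, 12.70 and 12.84, without overlap, at -0.30 (SE 0.114, adjusted p = 0.193).

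The 43 genes were read by 81 single-symbol probe sets, and all 81 differences lay below 0. The 38 that were not the brightest of their gene had a median of -0.43 and ranged from -0.998 to -0.03. Probe sets of a gene share its transcripts and are not independent. In the fit over every probe set 9 of the 81 were called lower and 0 higher, against 1.15% and 2.23% of all probe sets. PLK1, NUF2 and CCNB1 did not pass there (adjusted p = 0.0535, 0.0665 and 0.0510).

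Other cell cycle genes, from lists that hold none of the 43, were set beside them. Of 81 further G2/M genes 8 were lower and 0 higher (42 lower and 0 higher at an unadjusted p under 0.05, where 8.98% of all genes were lower), with a median of -0.29, and 77 lay below 0. With the replicate block 12 were lower, and with any 1 of the 6 arrays left out between 1 and 5. With the β-actin ratio as a covariate 1 was lower, SGO1, and the median was -0.11. SGO1 (shugoshin), which protects centromeric cohesin, fell the most, from 10.10 ± 0.111 to 7.79 ± 0.205 (SD, n = 3 each; difference -2.31, SE 0.131, adjusted p = 0.000203). A second probe set of SGO1 stood at -0.07. DEPDC1B was next at -0.70 (SE 0.155, adjusted p = 0.0452). Its limma adjusted p was 0.0605 in the fit over every probe set. With single arrays left out, it was called only without replicate 1 of DLD-1Δα-Cat. Among 42 DNA replication and S phase genes 1 was lower, the chromatin assembly factor CHAF1B (difference -0.73, SE 0.152, adjusted p = 0.0374), the median was -0.31 and all 42 lay below 0. In the fit over every probe set CHAF1B had a limma adjusted p of 0.0508. The replicate block raised the count to 6, with MCM7, MCM10, POLD1, POLE2 and PRIM1 added. It was 2 without replicate 2 of DLD-1α-Cat and 0 without any other single array. The members thus had the lower median, -0.41, and whether the lists differ was not tested. With the β-actin ratio as a covariate the S phase median was -0.00018, 21 of 42 lay below 0 and 0 were called lower. In that fit the median of all genes was 0.0082, and 9634 of 19775 lay below 0.

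The lists of APC/C subunits, of the DREAM, MuvB and NF-Y complexes and of G1 regulators had medians between -0.16 and -0.06. Of 15 core subunits and partners of the APC/C, CDC27 (APC3) rose (difference 0.47, SE 0.106, adjusted p = 0.0488), 0 were lower, and the median was -0.06. The 4 probe sets of CDC27 stood between 0.47 and 0.73. In the fit over every probe set those at 0.73 and 0.60 passed (limma adjusted p = 0.0195 and 0.0285). Those at 0.56 and 0.47 did not (limma adjusted p = 0.0752 and 0.0734). The call of CDC27 in the main fit was lost with the replicate block, with the β-actin covariate and without each array other than replicate 2 of DLD-1α-Cat. With the block UBE2S was lower instead, as it was without that array. Of 14 genes of DREAM, MuvB and NF-Y, E2F5, a repressor-type E2F, was lower (difference -0.60, SE 0.124, adjusted p = 0.0364) and the median was -0.08. A second probe set of E2F5 stood at -0.12, and the first had a limma adjusted p of 0.0526 in the fit over every probe set. The call of E2F5 held with the replicate block and when replicate 1 of DLD-1Δα-Cat or replicate 2 of DLD-1α-Cat was left out. It was lost without each of the other 4 arrays and with the β-actin covariate. Among 15 G1 cyclins, kinases and E2F genes 0 were lower and 1 higher. This was CDK6, a D-cyclin kinase of G1, which rose from 9.37 ± 0.357 to 10.93 ± 0.345 (SD, n = 3 each; difference 1.56, SE 0.228, adjusted p = 0.0108), against a list median of -0.16. Of its 7 probe sets 2 stood near 0, at 0.18 and -0.12, and the other 5 between 0.96 and 1.78. Its call was lost without replicate 3 of DLD-1α-Cat and with the β-actin covariate. TTTGAA was present in 34 of 65 promoter windows of the further G2/M genes and in 1 of 38 of the S phase genes.

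**Figure D4:**
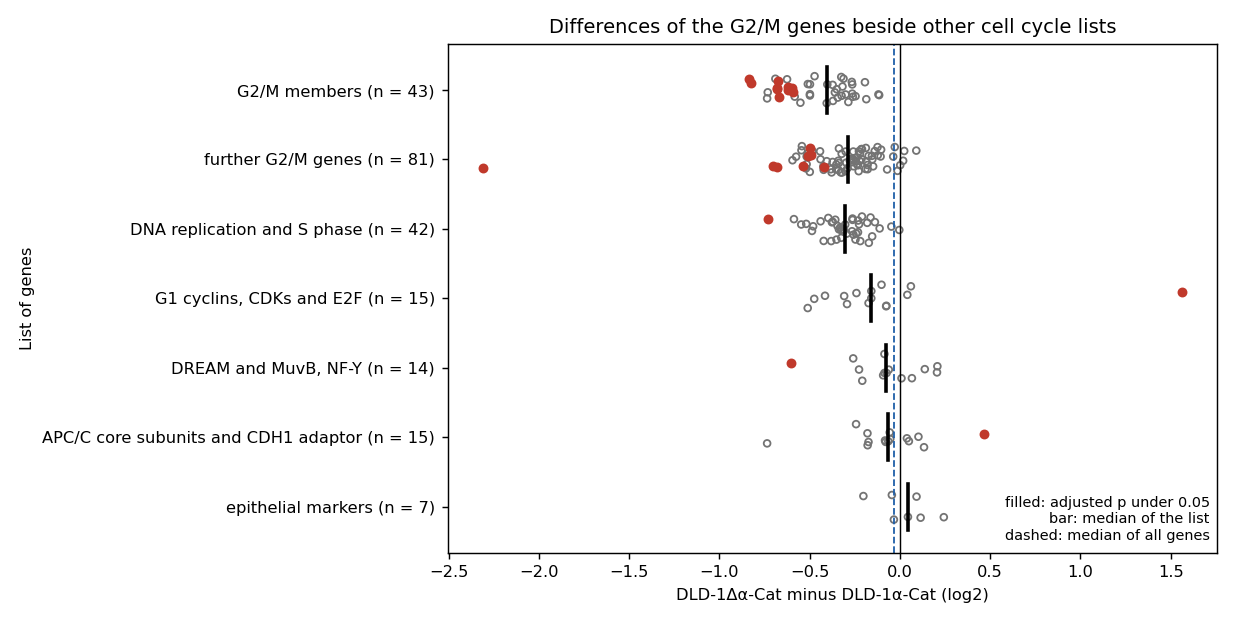
Differences (DLD-1Δα-Cat minus DLD-1α-Cat, log2) of the 43 members and of 6 lists that hold none of them; each point is a gene, filled where the adjusted p was under 0.05, with a bar at the list's median. All 43 members lie left of the median of all genes (dashed, -0.03), the medians of the further G2/M and S phase genes stand at -0.29 and -0.31, and CDK6 stands apart at 1.56.

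Other ways of fitting the same values changed how many of the 43 genes were called lower, and 0 were called higher in any. Moderation with trend and robust eBayes called 18 (2.85% of all genes), array weights 15 (2.78%) and the mean of each gene's probe sets 11 (1.9%). Quantile normalization called 12 (2.4%), centring 9 (1.63%) and a fit over every probe set, read at the brightest of each gene, 7 (1.23%). Leaving out the dimmer genes kept 40 members and called 15 of them (4.48%). Without moderation of the variances 0 passed and 0.243% of all genes were called lower, while at an unadjusted p under 0.05 it had 24 members lower and 0 higher, and 8.04% of all genes lower.

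**Figure D5:**
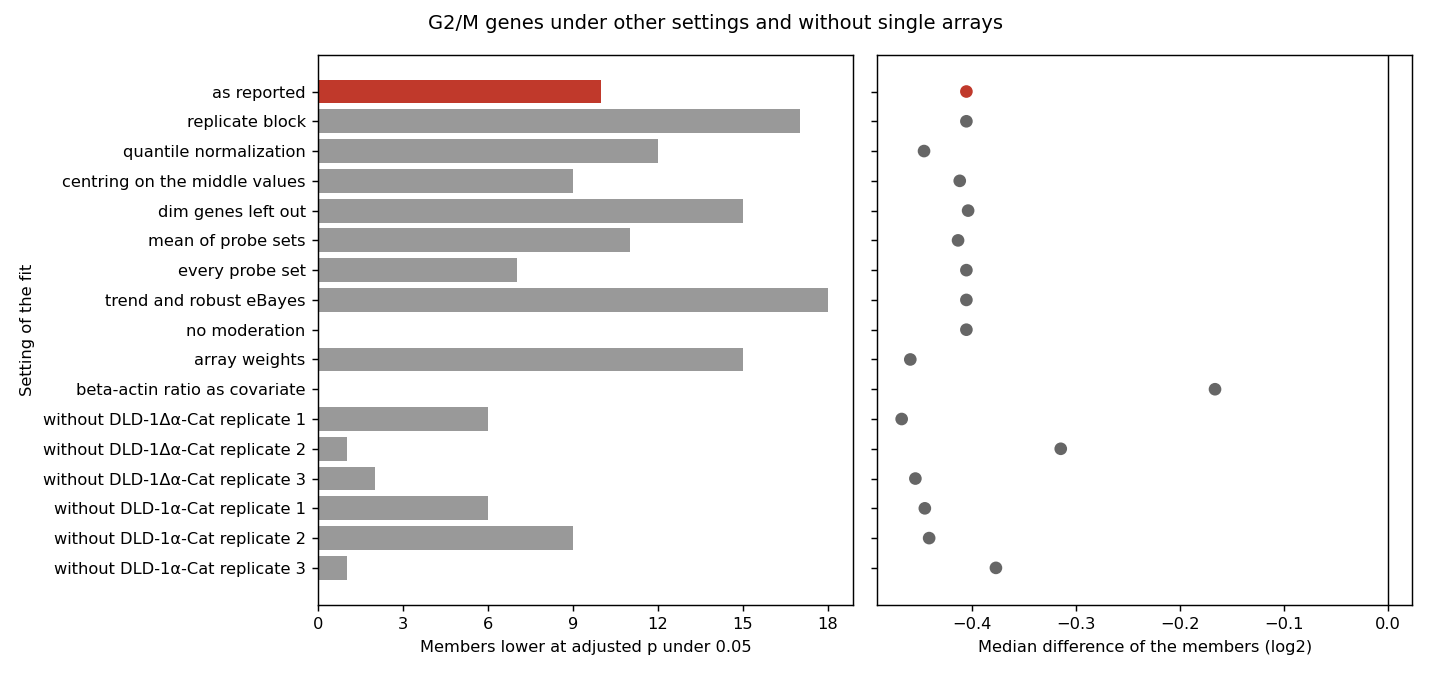
Number of members called lower (left) and their median difference (right, log2) in the fit as reported, under each alternative and without each array. Counts run from 0 to 18 and medians from -0.47 to -0.17, all below 0.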

How the data were processed

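Total RNA of 6 samples was biotin-labelled and read on Affymetrix arrays of 54675 probe sets. The authors deposited log2 values, computed with RMA in the Affymetrix Expression Console according to the submitters' processing notes. Versions: not given in the sources used here. Because RMA equalises the brightness of arrays, a shift shared by all RNA is lost. Values ran from 1.95 to 15.15.

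Here 62 control probe sets were left out. Of the rest, 41091 carried a single gene symbol in the platform annotation, 1801 several and 11721 none in that table. They gave 19775 genes, each by its brightest probe set, with no filter on dim genes. Groups and replicate numbers came from the sample titles. Both groups were fitted in 1 model with limma 3.58.1 in R 4.3.3 (lmFit, eBayes, two-sided, Benjamini-Hochberg over all genes, threshold 0.05). Every adjusted p in the text is from this fit unless another is named. The fit was tested on simulated data with the means and moderated spreads of these genes. There it called 12 of 50 genes changed by 0.5 (log2) and 49 of 50 changed by 1. Most changes of 0.5 were thus missed, and 12 of all 173 calls were false.

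Arrays with the same replicate number deviated together from the group means over genes (r = 0.225, 0.376 and 0.122, all above 0.1). Arrays of unlike number had r between -0.317 and 0.0666. All these values come from deviations from the group means and are not independent of each other. On that basis, from the data rather than a stated design, the numbers were taken to pair the samples. The pairing remains an assumption, and the block was run as an alternative. Lists were described by counts and medians, without a test. The members, lists and alternatives were chosen with earlier results of these data known. Values per array are given for called members and, in each of 10 role groups, the members with the largest and smallest difference. From the other lists the most changed called genes are named. The search of any annotated start site was added after seeing the data. Sequences are from RefSeq.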

Additional observations from a re-analysis of the deposited data

How the results depend on the processing

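The sign of the members' median held under every alternative run, between -0.46 and -0.40 for those that kept all arrays and added no covariate, and 0 members were called higher in any. The count of 10 lower members became 17 with the replicate block (which lost none of the 10), 18 with trend and robust eBayes, 0 without moderation (24 lower and 0 higher at an unadjusted p under 0.05, with 8.04% of all genes lower) and 0 with the β-actin ratio as a covariate. In that covariate fit the median was -0.17, and KIF4A (0.16), NDC80 (0.17), BUB1B (0.099), MKI67 (0.090), KIF23 (0.055) and FOXM1 (0.017) turned above 0; the cause was not tested. It was within 1.5 times under quantile normalization, centring, array weights, without dim genes, with the mean of probe sets and with every probe set (7 to 15). Leaving out each array gave 1 to 9 members and medians from -0.47 to -0.31. There the difference of MKI67 ran from -0.38 to 0.047 and that of NDC80 from -0.20 to 0.0046: MKI67 turned to 0.031 without replicate 1 of DLD-1Δα-Cat and to 0.047 without replicate 3 of DLD-1α-Cat, and NDC80 to 0.0046 without replicate 2 of DLD-1Δα-Cat. Either CHR hexamer stood in 28 of 37 windows, in 21 before the start alone. Over any annotated start, TTTGAA stood in 28. With 3 arrays per group and no detection calls, small changes and dim probe sets such as that of INCENP are poorly resolved.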
